A study of Sedum plumbizincicola and Sedum alfredii with 13 samples.

Results

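The untreated organ comparison of Sedum plumbizincicola set its root libraries, A and B, against its shoot libraries, A and B. These 4 libraries were chosen from the labels, among 12 Illumina RNA-seq libraries with values. S. plumbizincicola is a stonecrop that accumulates zinc and cadmium (Cd) in its leaves, a hyperaccumulator. The 4 libraries came from plants given 0 µM CdCl2 for 3 days, with 2 biological replicates per organ according to the study design. How many plants went into each library, and whether root A and shoot A shared plants, is not in the labels, so p-values measure only the spread between libraries, which may be technical. In the tests across transcripts the Cd-treated S. plumbizincicola libraries also set that spread. The other libraries were 4 of S. plumbizincicola at 10 µM CdCl2 for 3 days (2 root, 2 shoot) and 4 of Sedum alfredii, a relative from a non-hyperaccumulating ecotype (root and shoot at 10 and at 0 µM, 1 library each).

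The root takes up water and mineral ions and loads them into the xylem, while the shoot carries out photosynthesis and exports sugar. Green tissue spends much of its mRNA on a few photosynthesis proteins, such as the small subunit of Rubisco, which fixes carbon dioxide, and the chlorophyll-binding proteins of the light-harvesting antennae. In a metal hyperaccumulator, root-to-shoot transport and storage in leaf vacuoles are the processes of interest. The files give numbered clusters of assembled transcripts, here called transcripts, with no gene names (0 of 66584 IDs were paired with one). Organ markers could therefore not be read, roles cannot be assigned, and at most 2 IDs higher in roots, 2 higher in shoots and 1 similar in both are named. Clusters whose IDs share a component number, such as the clusters of c32971, come from related assembled sequence.

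Root libraries A and B held 1355330 and 2403858 reads (rounded expected counts), and shoot libraries A and B held 2125017 and 1983167. Replicates differed by more than sampling noise, with a chi-square per degree of freedom of 13.6 between the roots and 4.56 between the shoots, where sampling alone gives about 1. Root libraries A and B stood apart in a few transcripts with very many reads, described with the concentration of reads below. The organ differences of these transcripts are given with and without each root library. For the concentration of reads, main values are given with and without these transcripts. Other counts and read shares include them. In bulk organs, fewer cells of a type and less RNA per cell cannot be told apart. Levels are in CPM (reads relative to library size, scaled by TMM factors over the 8 S. plumbizincicola libraries) unless TPM, which also divides by transcript length, is named. The mean CPM of S. alfredii used library totals alone, without these factors.

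The transcript with the highest mean level in roots, c32140_g1, was almost absent from shoots. It led root library B and came after 2 other transcripts in root library A. It had 29954 and 36086 reads in root libraries A and B, against 18 and 12 reads in shoot libraries A and B. Every root value was thus far above every shoot value, and the levels were 18182 ± 6711 CPM in roots and 8.27 ± 1.92 CPM in shoots (SD, n = 2 each). Its log2 fold change of root over shoot was 11.09 (SE 0.43, edgeR adjusted p = 1.29e-10, higher in 2 of 2 root libraries). Per length it stood at 53630 ± 10252 TPM in roots and 23.1 ± 6.57 TPM in shoots (SD, n = 2 each), for a length of 420 bases. It is the only cluster of its component. In S. alfredii it had 10610 and 13002 reads in the roots at 10 and 0 µM, against 8 and 2 reads in the shoots.

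After c32140_g1, the largest fold towards roots among transcripts with at least 10 reads in all 4 libraries was that of c32971_g2, 403 bases long. It had 11892 and 16291 reads in root libraries A and B, against 83 and 51 reads in shoot libraries A and B. The levels of 7584 ± 2147 CPM in roots and 36.9 ± 10.6 CPM in shoots (SD, n = 2 each) did not overlap, with a log2 fold change of 7.68 (SE 0.75, edgeR adjusted p = 7.51e-05). Its component held 2 further clusters, both also called higher in roots. One of them had 4586 and 5849 reads in roots against 5 and 4 in shoots, and the other had 1876 and 3486 reads in roots against 0 and 0 in shoots. Reads of such related clusters can be divided between them, so the levels of the single clusters are uncertain.

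The transcript with the most shoot reads, c42708_g2 (568 bases), was nearly absent from roots. It had 45 and 68 reads in root libraries A and B, against 54685 and 49831 reads in shoot libraries A and B. At 29.9 ± 6.45 CPM in roots and 28961.5 ± 403 CPM in shoots (SD, n = 2 each), its log2 fold change was -9.94 (SE 0.36, edgeR adjusted p = 1.06e-10). The SD of the shoot replicates was small relative to their mean, and that of c32140_g1 in roots was larger. Its partner cluster in the component did not follow it, with 19 and 36 reads in roots and 24 and 11 reads in shoots (edgeR adjusted p = 0.268). In S. alfredii the named cluster had 282 and 222 reads in the roots at 10 and 0 µM, against 109114 and 230061 in the shoots.

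After c42708_g2, the largest fold towards shoots at 10 reads or more in every library was that of c40160_g2 (579 bases). It had 12 and 25 reads in root libraries A and B, against 5775 and 6183 reads in shoot libraries A and B. Levels were 9.25 ± 0.0876 CPM in roots and 3323 ± 332 CPM in shoots (SD, n = 2 each), and the log2 fold change was -8.48 (SE 0.32, edgeR adjusted p = 1.06e-10). Related clusters of its component differed far less: 1 had no read in the 4 libraries, 1 had a log2 fold change of -0.71 (edgeR adjusted p = 0.139), and 1 of -0.52 (SE 0.20, edgeR adjusted p = 0.0422).

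By contrast c41037_g1 (996 bases) had the most reads among transcripts that were similar in both organs. It had 3030 and 5329 reads in root libraries A and B, against 4649 and 3566 reads in shoot libraries A and B. Its levels of 2152 ± 237 CPM in roots and 2269 ± 307 CPM in shoots (SD, n = 2 each) overlapped. The log2 fold change was -0.08 with a 95% interval of -0.55 to 0.39 (edgeR adjusted p = 0.791). The transcript was chosen for being uncalled with an interval within 2-fold, so these values do not test its likeness. Its component as a whole was not alike in both organs: another cluster of it had 3 and 9 reads in roots against 58 and 37 reads in shoots (log2 fold change -3.11, SE 0.44, edgeR adjusted p = 2.77e-05). In S. alfredii the named cluster had 23110 and 40077 reads in roots at 10 and 0 µM, against 2608 and 10464 in shoots. Relative to library totals these were 5841 and 11667.5 CPM in roots against 728 and 2240 CPM in shoots (1 library each). The likeness in S. plumbizincicola was thus not seen in S. alfredii.

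**Figure D1:**
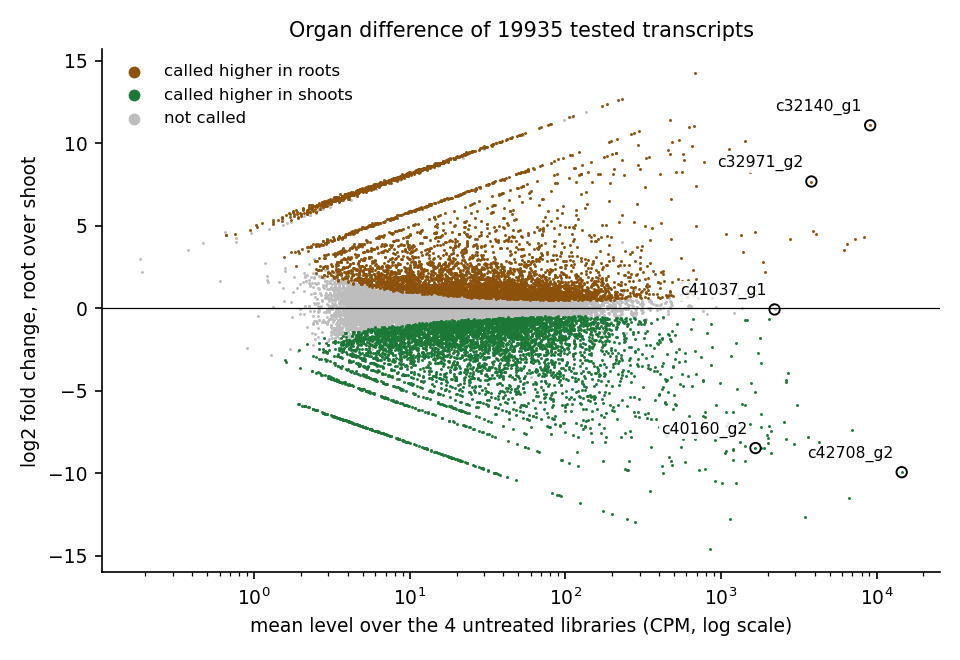
Log2 fold change of root over shoot (vertical axis) against mean level over the 4 untreated libraries in CPM (horizontal axis, log scale) for 19935 tested transcripts; circles mark the 5 named ones. Calls in brown are higher in roots and calls in green higher in shoots, c32140_g1 and c42708_g2 lie at the far right of each side, and the outer straight bands are transcripts with 0 or few reads in 1 organ, whose fitted fold depends on a prior count.

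Over all 19935 transcripts tested, 10488 (52.6%) differed between the organs. In roots 5423 transcripts (27.2%) were higher and 5065 (25.4%) were lower than in shoots, at an edgeR adjusted p under 0.05. Against a 2-fold difference (edgeR's glmTreat, adjusted p under 0.05) 2786 were higher (14.0%) and 2983 lower (15.0%) in roots. Both root libraries stood above both shoot libraries in 5422 of the 5423 root-higher calls, and below them in 5059 of the 5065 shoot-higher calls; over all tested transcripts the shares were 40.3% and 36%. With 2 libraries against 2 a permutation test of a single transcript cannot go below an exact two-sided p of 0.33, so calls rest on the spread shared across transcripts. The split depended on scaling: with library totals alone, which moved the median log2 fold change of all transcripts to 0.34 from 0.08 under TMM, 6762 were higher and 4075 lower in roots, or 62.4% higher in place of 51.7%.

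A similar level in both organs could be stated for fewer transcripts. Of the 9447 not called, 3709 had a 95% interval of the log2 fold change within 2-fold, which is 18.6% of all tested. The other uncalled transcripts had intervals that reach a 2-fold difference, so neither a difference nor a likeness is shown for them.

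The sizes of the called differences ran from under 2-fold to over 1000-fold. Where an organ had 0 reads, in 862 root-higher and 243 shoot-higher calls, the fold was taken as a lower bound with 3 counts over that organ. With these bounds, root-higher calls had a median of 1.74 on the log2 scale, and shoot-higher calls one of -1.99. At 16-fold or more stood 929 root-higher calls (17.1%) and 909 shoot-higher calls (17.9%). Folds set to a lower bound were more numerous among root-higher calls, so an equal frequency of extremes is not shown. Differences under 2-fold made up 21.6% of the root-higher and 14.7% of the shoot-higher calls. When every untreated library had to hold at least 10 reads, which drops transcripts silent in an organ, 2672 were higher and 2911 lower in roots, and 615 and 1173 beyond 2-fold.

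**Figure D2:**
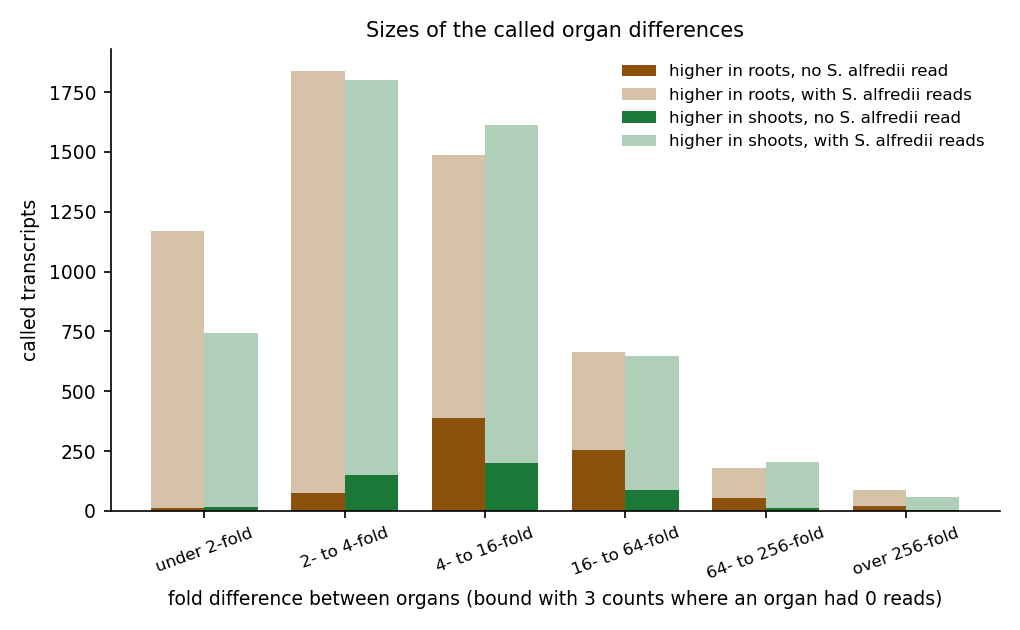
Number of called transcripts (vertical axis) in 6 classes of fold difference (horizontal axis), higher in roots (brown, left) and higher in shoots (green, right); dark parts had no read in the 4 Sedum alfredii libraries. The 929 root-higher and 909 shoot-higher calls at 16-fold or more are similar in number, while dark parts are larger on the root side from 4-fold upward.

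The transcripts with most reads differed most often. Among 82 transcripts with a mean of at least 1000 CPM over the 4 libraries, 95.1% were called, 23 of them higher in roots and 55 higher in shoots. Of 7680 transcripts between 5 and 20 CPM, 45.8% were called, 1795 higher in roots and 1723 higher in shoots. Counting error is larger at low levels, so fewer calls there do not show fewer differences.

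Called transcripts also held most of the reads. The root-higher ones took 57.8% and 50.6% of the reads of root libraries A and B, against 11.8% and 12.5% in shoot libraries A and B, an order that follows from their choice in these libraries. In the Cd-treated libraries, which set the shared spread of the fit but not the direction of these calls, they took 50.7% and 49.4% of root reads and 11.9% and 12.9% of shoot reads. Shoot-higher transcripts took 10.3% and 11.8% of root reads, against 59.7% and 59.5% of shoot reads. With Cd their shares were 12.2% and 12.7% in roots and 60.5% and 57.7% in shoots.

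The concentration of reads was measured as the number of transcripts, counted from the one with most reads, that together hold 50% of a library. Both root values were above both shoot values, but the root libraries differed widely from each other. The number was 1147 and 1775 in root libraries A and B, against 985 and 932 in shoot libraries A and B. Means were 1461 ± 444 in roots and 958.5 ± 37.5 in shoots (SD, n = 2 each). The difference of 502.5 is close to the spread between the roots, and the smallest exact two-sided p for 2 against 2 is 0.33. Cd-treated libraries gave 1656 and 1701 in roots against 931 and 1106 in shoots. Over both doses the roots were above the shoots of the same dose in every library, with a mean difference of 581 and p = 0.0556 by an exact permutation test of organ within dose (two-sided), the smallest that this design allows.

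The head of the distribution told the root libraries apart. The single leading transcript took 2.73% of reads in root library A and 1.50% in root library B (95% exact binomial intervals 2.70% to 2.75% and 1.49% to 1.52%), against 2.57% (2.55% to 2.59%) and 2.51% (2.49% to 2.53%) in shoot libraries A and B. The 10 leading transcripts took 15.3% (15.2% to 15.3%) and 5.94% (5.91% to 5.97%) in root libraries A and B, against 8.50% (8.46% to 8.54%) and 9.30% (9.26% to 9.34%) in shoot libraries A and B. The shoots lay between the roots, so no organ difference in this share is shown (p = 0.778, exact permutation within dose, two-sided). For the 100 leading transcripts the shares were 26.0% and 16.2% in roots and 25.4% and 26.8% in shoots (p = 0.111, exact permutation within dose, two-sided). The effective number of transcripts, the exponential of the Shannon entropy of read shares, was 4530 and 7802 in root libraries A and B, against 4870 and 4621 in shoot libraries A and B.

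**Figure D3:**
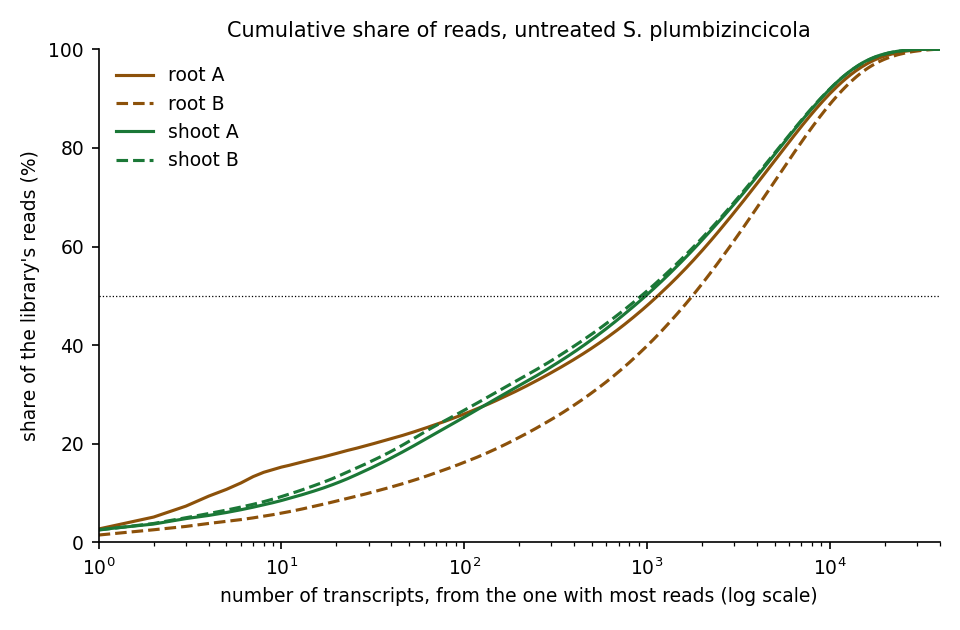
Share of a library's reads in percent (vertical axis) held by the given number of leading transcripts (horizontal axis, log scale) in root libraries A and B (brown) and shoot libraries A and B (green), solid for A and dashed for B. The curve of root A rises early to 15.3% at 10 transcripts and crosses 50% (dotted line) at 1147, root B crosses at 1775, and the shoot curves nearly coincide and cross at 985 and 932.

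At the head, root library A differed from B in a set of 9 transcripts. Among the 100 transcripts with most root reads, 9 stood at least 4-fold higher in root library A than in B (5.68- to 10.5-fold) and none at least 4-fold higher in B; in shoots none of the 100 leading transcripts differed by 2-fold between A and B. The 9, chosen after their values were seen, took 11% and 1.45% of reads in root libraries A and B, against 0.218% and 0.358% in shoot libraries A and B. In Cd-treated libraries they took 4.53% and 5.74% of root reads and 0.480% and 0.447% of shoot reads. The Cd-treated root shares lie between those of root libraries A and B, so which of these is the unusual one is not shown. The largest member of the 9 held 24.7% and 25.1% of the set's reads in root libraries A and B and its second member held 22.0% and 18.5%. They were between 254 and 1218 bases long, 2 of them share a component, and 5 are among the 10 leading root transcripts.

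All 9 were called higher in roots, at log2 fold changes of 3.91 to 4.84 (edgeR adjusted p between 0.0151 and 0.0364). Without root library A the changes were 1.67 to 3.11, all 9 still called, and without root library B they were 4.73 to 5.62, so the size of their organ difference depended on the root library. These fits leave 1 untreated root library, which is assumed to vary like the other groups, and the disagreement between the root replicates is then absent from the spread. In the fit of the 4 untreated libraries alone, 0 of the 9 were called by edgeR (adjusted p between 0.0937 and 0.140), and 0 had a p under 0.05 before adjustment. On the 8 libraries 0 were called by edgeR with a replicate block (adjusted p between 0.0642 and 0.103), while DESeq2 and limma on log2(TPM + 1) called all 9. With the 9 removed, 50% of reads lay on 1616 and 1832 transcripts in root libraries A and B, against 987 and 937 in shoot libraries A and B. The 100 leading transcripts then took 17.5% and 15.5% of root reads and 25.4% and 26.9% of shoot reads. Since the 9 were chosen for being high in root library A, their removal lowers its shares by construction.

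**Figure D4:**
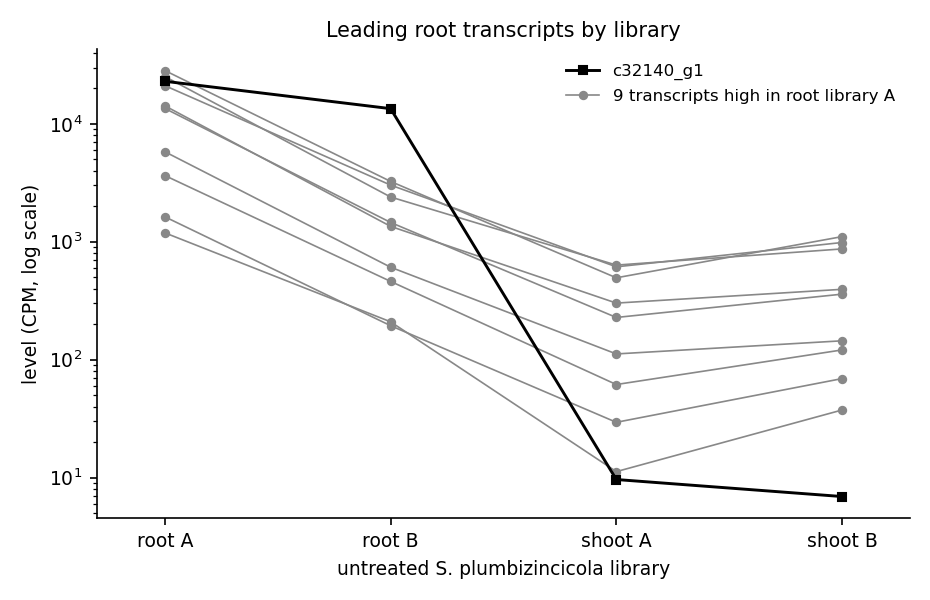
Level in CPM (vertical axis, log scale) of the 9 transcripts high in root library A (grey circles) and of c32140_g1 (black squares) in the 4 untreated libraries (horizontal axis); lines only join the values of 1 transcript. The 9 lie 5.68- to 10.5-fold higher in root A than in root B, while c32140_g1 is high in both roots and at 9.63 and 6.91 CPM in shoots A and B.

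Counted per length, the order of the libraries changed. On TPM, 50% of the total lay on 503 and 1646 transcripts in root libraries A and B, against 699 and 581 in shoot libraries A and B, so root A was then more concentrated than either shoot. Over both doses the organ difference on TPM had p = 0.167 (exact permutation within dose, two-sided). The 10 transcripts with the highest mean CPM in roots had a median length of 832 bases (403 to 1656), 4 of them under 500 bases, and the 10 with the highest mean CPM in shoots a median of 1337 bases (568 to 2136), with 0 under 500 bases. The 10 leading TPM values made up 26.1% and 11.7% of root libraries A and B, against 13.9% and 15.5% of shoot libraries A and B.

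The leading transcripts of the organs were largely distinct. None of the 10 with most root reads was among the 10 with most shoot reads, 11 were shared among the 100 leading ones and 358 among the 1000 leading ones. Of the 100 leading root transcripts 83 were called higher in roots, 4 lower and 13 not, with 40 at 16-fold or more. The 83 include the 9 transcripts high in root library A. Of the 100 leading shoot transcripts 93 were called higher in shoots, 3 lower and 4 not, with 74 at 16-fold or more. These lists were chosen by the level in their own organ, so a high share of calls in that direction is built into them. Full silence in the other organ was rare at the top: 1 of the 100 leading root transcripts had 0 shoot reads, and 1 of the 100 leading shoot transcripts had 0 root reads. The 10 leading shoot transcripts together took 0.0843% and 0.0518% of root libraries A and B, against 8.44% and 9.26% of shoot libraries A and B.

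More transcripts had at least 1 read in roots. Thinned to 1355330 reads each, root libraries A and B held at least 1 read for 31246 and 33573 transcripts, against 27990 and 28255 in shoot libraries A and B. At this minimum the root values lay above the shoot values by more than the difference within either organ. With at least 10 reads the numbers were 14765 and 15831 in roots and 14421 and 14338 in shoots, a gap smaller than the difference between the roots. At full depth the numbers were 31246 and 37200 in roots and 30243 and 30155 in shoots. At full depth 14609 transcripts had at least 10 reads in both roots and 15318 in both shoots, and 12138 transcripts had at least 10 reads in each of the 4 libraries.

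Organ-restricted transcripts were defined as having at least 10 reads in both libraries of an organ and 0 reads in both libraries of the other. The rule found 633 root-restricted transcripts among 14609 with at least 10 reads in both roots (4.33%), and 201 shoot-restricted transcripts among 15318 with at least 10 reads in both shoots (1.31%). These counts, chosen on the 4 libraries themselves, are given without a test. The root-restricted were more numerous also at minimums of 5 reads (1241 and 324) and 20 reads (302 and 115), and after thinning all libraries to equal depth (637 and 177). Without root library A, the shallowest of the 4, the counts were 1272 root-restricted and 260 shoot-restricted, and without root library B they were 696 and 432. With up to 3 reads allowed in the other organ they were 1024 and 510. Of the 633, 620 passed the filter on low counts and 613 were called, and of the 201, 197 passed and all of those were called, as the rule nearly ensures.

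The restricted transcripts were mostly of low level. Root-restricted ones had a median of 14.8 CPM in roots (quartiles 10.0 and 26.2) and 21 of them reached 100 CPM, and shoot-restricted ones a median of 14.5 CPM in shoots (quartiles 9.62 and 32.9) with 10 at 100 CPM or more. With 3 counts set for the silent organ, the 633 were at least 17.8-fold higher in roots at the median (6.84 to 1643.8), and the 201 at least 19.3-fold higher in shoots (7.39 to 2271). The root-restricted set took 1.85% and 1.84% of the reads of root libraries A and B (95% exact binomial intervals 1.82% to 1.87% and 1.82% to 1.85%). The shoot-restricted set took 0.771% (0.759% to 0.782%) and 0.744% (0.732% to 0.756%) of shoot libraries A and B. The shares of both sets were close between the replicates of an organ. The 10 leading members of the root set held 23.9% and 24.2% of its reads in root libraries A and B, while those of the shoot set held 51.7% and 52.0% in shoot libraries A and B.

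Both sets held shorter transcripts with fewer isoforms than other transcripts of the organ. The median length was 706 bases for root-restricted transcripts, against 1326 bases for all transcripts with at least 10 reads in both roots, and 740 against 1316 bases on the shoot side. A single isoform made up 60.2% of the root-restricted clusters, against 15.5% of all clusters at that level in roots, and 44.3% against 13.4% in shoots. Longer transcripts gather more reads at a given abundance, so length and silence in an organ cannot be told apart by these counts alone.

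The other libraries, which the rule did not use, show where these transcripts stayed silent. In Cd-treated shoots 553 of the 633 root-restricted transcripts again had 0 reads in both libraries, and 631 had at most 3. In Cd-treated roots 146 of the 201 shoot-restricted transcripts had 0 reads in both libraries, and 198 had at most 3. Their own organs gave these counts. At least 10 reads in both Cd-treated roots remained for 231 of the 633, and 40 had none there, while 179 of the 201 had at least 10 in both Cd-treated shoots and 0 had none. Cd-treated root libraries A and B held 1260160 and 1628928 reads, and Cd-treated shoot libraries A and B held 1962230 and 1861294. A fixed minimum of 10 reads is thus harder to reach in the Cd-treated roots, and how much this adds was not tested. The root-restricted set took 1.05% and 1.03% of the reads of Cd-treated root libraries A and B, against 1.85% and 1.84% of untreated root libraries A and B. The shoot-restricted set took 0.772% and 0.719% of Cd-treated shoot libraries A and B, against 0.771% and 0.744% of untreated shoot libraries A and B. The rule asked for 10 reads in untreated libraries only, which by itself favours them.

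**Figure D5:**
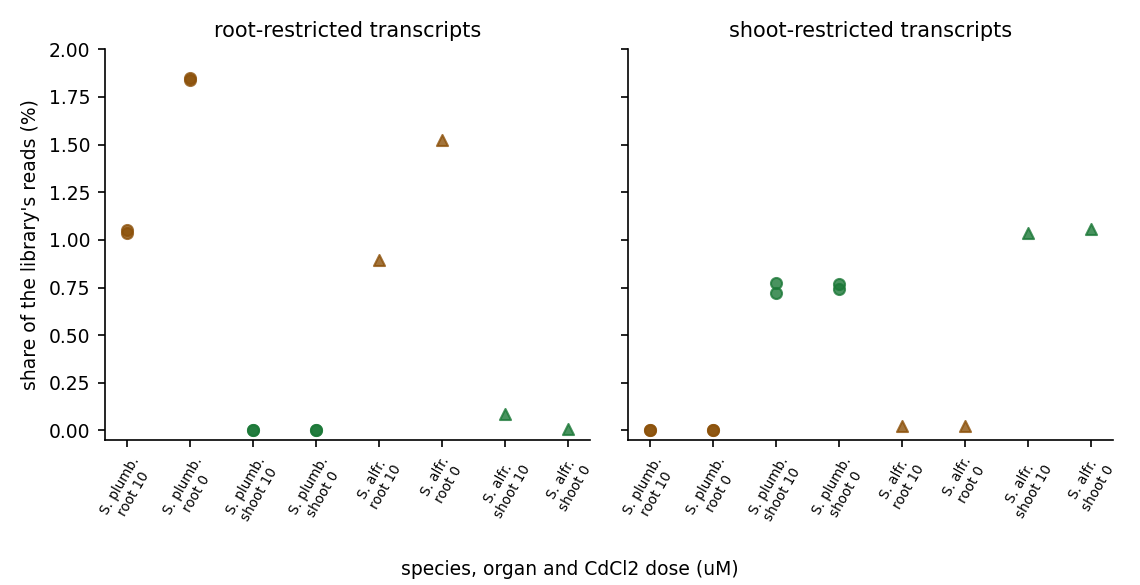
Share of a library's reads in percent (vertical axis) taken by the 633 root-restricted (left) and 201 shoot-restricted (right) transcripts in all 12 libraries, by species, organ and CdCl2 dose in µM (horizontal axis); circles are Sedum plumbizincicola, triangles Sedum alfredii, brown roots and green shoots. The root set takes 1.05% and 1.03% of Cd-treated and 1.85% and 1.84% of untreated S. plumbizincicola roots, and the shoot set 0.719% to 0.772% of all 4 S. plumbizincicola shoots.

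Reads in S. alfredii divided the root-restricted set. Of the 633, 410 (64.8%) had no read in any of the 4 S. alfredii libraries, against 6.93% of all transcripts with at least 10 reads in both S. plumbizincicola roots. On the shoot side 54 of the 201 (26.9%) had none, against 5.26%. Counting only transcripts with an S. alfredii read, 223 were root-restricted and 147 shoot-restricted. Both species were aligned to 1 transcript set, so a read that aligns poorly and a gene that is silent or missing in S. alfredii cannot be told apart.

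The 410 without S. alfredii reads took a smaller share of Cd-treated than of untreated roots. At least 10 reads in both Cd-treated roots were found for 47 of these 410, against 150 of the 176 root-restricted transcripts with at least 10 S. alfredii reads. In untreated roots the 410 had the lower median, 13.0 CPM against 21.5 CPM for the 176. A fixed minimum of 10 reads is thus harder to reach for the 410, and how much this adds was not tested. The 410 took 0.182% and 0.165% of Cd-treated root libraries A and B, against 0.834% and 0.784% of untreated root libraries A and B. The 176 took 0.786% and 0.785% of Cd-treated root libraries, against 0.845% and 0.960% of untreated ones. This division was made after the values were seen, and no test was run on it. On the shoot side 47 of the 54 without S. alfredii reads had at least 10 reads in both Cd-treated shoots, and so had 105 of the 117 with at least 10 such reads.

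Restricted transcripts with S. alfredii reads were mostly higher in the same organ of that species. Of the 176 root-restricted ones with at least 10 S. alfredii reads, 173 had the higher mean CPM in its roots and 163 were at least 10-fold higher there. Of the 117 shoot-restricted ones, 112 had the higher mean CPM in its shoots and 94 were at least 10-fold higher there. S. alfredii had 1 library per organ and dose, so these are counts without a test. They were not centred on the median root-to-shoot ratio. In untreated S. alfredii that median was 0.97 on the log2 scale over 16288 measured transcripts. Higher values in its roots were thus the more common case, which favours the root count over the shoot count. Across all calls with at least 10 reads in an untreated S. alfredii library, 83.2% of 4239 root-higher transcripts lay above, and 84.9% of 4197 shoot-higher transcripts lay below, the median root-to-shoot ratio of that species.

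Related clusters did not always share an organ. Among 2969 components with at least 2 tested clusters, 234 (7.88%) held both a cluster called higher in roots and one called higher in shoots, 962 held root-higher calls only, 964 held shoot-higher calls only, and 809 held no call. In components with exactly 2 tested clusters of which both were called, 320 pairs were both higher in roots, 316 both higher in shoots, and 126 opposite. The count of 234 was 73 when both calls had to pass 2-fold, 131 with DESeq2's Wald test, and 153 without shoot library A. Of the 73, 35 had leading members of at least 20 CPM in their organs and 6 of at least 100 CPM. No component held both a root-restricted and a shoot-restricted cluster.

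Of those 73, a component chosen by the level of the weaker of its leading members had 4 tested clusters. Its root-higher leading cluster had 1026 and 1378 reads in root libraries A and B, against 7 and 7 reads in shoot libraries A and B (log2 fold change 7.36, SE 0.42, edgeR adjusted p = 3.75e-09). Its shoot-higher cluster had 70 and 188 reads in root libraries A and B, against 569 and 312 reads in shoot libraries A and B (log2 fold change -1.95, SE 0.26, edgeR adjusted p = 1.63e-05). The next such component had a shoot-higher cluster with 10 and 15 reads in roots against 343 and 244 in shoots, beside a root-higher one with 185 and 458 reads in roots against 35 and 36 in shoots. In each of these clusters the organs did not overlap. They were chosen as calls in these same libraries, which nearly ensures this, so it is not a separate test. Reads of related clusters can be divided between them, so these levels are uncertain.

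Isoform use was read from the isoform-weighted length of a cluster. Among 10873 clusters with several isoforms and at least 10 reads in all 4 libraries, it was over 1.1-fold longer in both roots than in both shoots for 438, and over 1.1-fold shorter for 392. Replicates alone were over 1.1-fold apart for 1937 of them in roots and 1807 in shoots. The organ counts asked for both libraries of an organ to lie beyond both of the other. The replicate counts asked only that A and B be apart in either direction, so the sizes of these counts cannot be compared.

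The organ differences were followed at the other dose. In Cd-treated plants 4176 of the 5423 root-higher transcripts (77.0%) and 4204 of the 5065 shoot-higher transcripts (83.0%) were called in the same direction. These make up 84.9% of the 4920 root-higher and 90.3% of the 4656 shoot-higher calls with Cd, and 4 transcripts were called in opposite directions. Both contrasts came from 1 edgeR fit with a shared spread. A test of the difference between the organ contrasts of the 2 doses in edgeR gave 0 calls among 19935, the lowest adjusted p being 0.065. Before adjustment 528 transcripts had a p under 0.05 in this test. That share of the 19935 is below the 0.05 that arises on average without any dependence. No dependence of an organ difference on Cd passed this test, which does not show that there was none.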

How the data were processed

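The deposited files hold RSEM gene results for 12 libraries, and the tools listed in the submitters' processing notes are FastQC, Bowtie and RSEM, with no versions. Assembly and trimming are not given in the sources used here. The deposited expected counts (RSEM estimates, per the file headers) were rounded to whole numbers, ranging from 1355330 to 2403858 reads in the 4 untreated libraries. The deposited TPM values, scaled by the authors within each library, served for levels per length and 1 alternative test, and the authors' isoform-weighted lengths, in bases, were used as given. A further pooled sample of the series was not analysed here.

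Tests used edgeR 4.0.16 in R 4.3.3 on the 8 S. plumbizincicola libraries: TMM, filterByExpr, 4 residual degrees of freedom, robust quasi-likelihood F-test and glmTreat against 2-fold, two-sided, Benjamini-Hochberg over 19935 transcripts, threshold 0.05. The common biological coefficient of variation was 0.177. The SE of a log2 fold change was derived as its absolute value divided by the square root of its F statistic. Intervals of log2 fold changes rest on this derived SE. Single values used exact permutations. Floors are 3 counts over an organ. Binomial intervals of read shares cover counting error only, while intervals of log2 fold changes also carry the spread between libraries. Alternatives were DESeq2 1.42.0, limma 3.58.1 on log2(TPM + 1) and log2(TPM + 0.1), other scalings, filters, a replicate block, thinning (1 seeded draw) and leaving out each library. The script was tested on simulated data.

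Named transcripts were the called one with the highest mean CPM per organ, the one with the next largest fold at 10 or more reads in all 4 libraries, and the uncalled one with the highest mean CPM and an interval within 2-fold. Transcript lists and rules were chosen with earlier results of these data known.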

Additional observations from a re-analysis of the deposited data

How the results depend on the processing

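Replicates carry letters only, and the labels do not say that a letter marks shared plants or a batch. The A-over-B log ratios of untreated roots and shoots had a correlation of 0.137 across 12138 transcripts. Across doses the correlation was 0.458 for roots and 0.315 for shoots, and 5 of the 6 pairs of groups were over 0.1 (lowest 0.0846), a hint from the data that letters share a deviation. With a replicate block edgeR called 11466 transcripts in place of 10488 (6094 in place of 5769 beyond 2-fold), and 0 of the 9 transcripts high in root library A (6 of them at a p under 0.05 before adjustment). With at least 10 reads in each untreated library 5583 were called (2672 higher and 2911 lower in roots), and 1788 beyond 2-fold (615 and 1173). Leaving out 1 of the 4 libraries gave 8821 to 9557 calls (4499 to 4929 higher, 4322 to 4695 lower in roots), and 5088 to 5630 beyond 2-fold (2422 to 2743 higher, 2658 to 2910 lower). The other settings gave 7938 (DESeq2) to 12450 calls (no filter).

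Root-restricted transcripts numbered 1241 at 5 reads, 302 at 20 reads and 1024 with up to 3 reads in the other organ, and 696 to 1272 with 1 library left out. Shoot-restricted ones numbered 324, 115 and 510 in the same order, 233 to 432 with 1 library left out, and 125 when clusters were summed by component, against 534 on the root side. The transcripts holding 50% of reads ranged from 1147 to 1775 in roots and from 932 to 985 in shoots with 1 library left out. For shoots they were 640 on TPM, 1048 without the leading transcript and 854.5 by component, where roots gave 1074.5, 1548 and 1289. Roots thus stayed above shoots in the mean, though on TPM root library A lay below both shoots. Without the 9 transcripts, an alternative chosen after seeing the data, they were 1724 in roots and 962 in shoots. Components with opposite calls numbered 73 beyond 2-fold, 131 with DESeq2 and 153 to 188 with 1 library left out. The causes of these shifts were not tested, except that stricter read minimums drop transcripts by construction. The 5 named transcripts kept their side of the threshold and their sign under 14 alternatives each, except that c41037_g1, not called under any, ranged from -0.21 to 0.17. With 2 libraries per organ, depth limits calls at low counts.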
